A study of Sus scrofa with 14 samples.

Results

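Interferon-stimulated genes were followed through the glands, the milk and the tissue sections of pregnant, lactating and involuting sows. The set held 9 genes chosen by name, IFIT1, IFIT2, IFIT3, ISG15, MX1, MX2, OAS1, RSAD2 and IRF7, out of 30071 gene identifiers in the files. They were picked with measured values of these libraries in view, so their levels are a description of these libraries and the tests on them are not independent evidence. In the gland nuclei and the milk cells 7 of the 9 were listed, with no entry for OAS1 or IFIT3. The sections listed 8, OAS1 among them, and IFIT3 was found in none of the files.

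The 14 libraries came from multiparous sows in their second breeding cycle. Nuclei of snap-frozen mammary gland were sequenced from separate sows, a pair per stage, at day 90 of gestation (G90), on days 0 and 20 of lactation (L0, L20), and 2 and 7 days after natural involution began (PI2, PI7). Whole cells came from colostrum at L0 and mature milk at L20, and spatial spots from a G90 and a PI2 section, with 1 library each and therefore no replicate for either. No sow was treated, and neither breed, age nor infection status was given in the sources used here.

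Cells make type I interferon when sensors such as RIG-I, cGAS and Toll-like receptors meet foreign nucleic acid. The secreted protein binds the receptor IFNAR1 and IFNAR2, and the kinases JAK1 and TYK2 then activate transcription factors that switch on genes with an interferon-stimulated response element. MX1 and MX2 are antiviral GTPases, IFIT1, IFIT2 and IFIT3 bind viral RNA or restrict its translation, OAS1 senses double-stranded RNA, RSAD2 (viperin) is a radical SAM enzyme that makes a chain-terminating nucleotide, ISG15 is a ubiquitin-like modifier, and IRF7 is the transcription factor that amplifies interferon production.

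The genes lie at 6 places in Sscrofa11.1, by the RefSeq annotation of that build. MX2 (ENSSSCG00000012076, 13:204798633-204821612) and MX1 (ENSSSCG00000012077, 13:204843049-204868927) are neighbours on the plus strand, and IFIT2 (ENSSSCG00000010451, 14:101193421-101204292), IFIT3 (14:101214730-101225169) and IFIT1 (ENSSSCG00000010452, 14:101237403-101249486) form a cluster on the plus strand of chromosome 14. OAS1 (ENSSSCG00000046640) lies apart on that chromosome at 14:38851083-38867427, on the minus strand. ISG15 (ENSSSCG00000040575) is at 6:63363201-63364211 on the plus strand, RSAD2 (ENSSSCG00000008648) at 3:128880853-128897809 on the minus strand and IRF7 (ENSSSCG00000012853) at 2:372235-375572 on the minus strand. How reads shared by the MX pair or by the IFIT paralogs were assigned was not given in the sources used here, so the split between those paralogs is uncertain.

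The 250 bases before the annotated start of 3 members are shown because response elements sit there and each of these genes was over 4-fold higher both in the second G90 gland than in the first and in mature milk than in colostrum. Capitals mark matches to the half-site pairs GAAANNGAAA or GAAANGAAA, searched on both strands with overlaps kept, so that a match on the minus strand reads as TTTCNNTTTC or TTTCNTTTC. The windows are 6:63362951-63363200 (ISG15), 13:204798383-204798632 (MX2) and 3:128897810-128898059 (RSAD2), each printed 5′ to 3′ on its gene's strand.
ISG15: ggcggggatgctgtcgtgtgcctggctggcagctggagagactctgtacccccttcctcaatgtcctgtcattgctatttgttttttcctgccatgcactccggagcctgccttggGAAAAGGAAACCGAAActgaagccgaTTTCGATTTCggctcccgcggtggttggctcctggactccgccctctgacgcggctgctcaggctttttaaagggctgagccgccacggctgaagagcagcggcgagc
MX2: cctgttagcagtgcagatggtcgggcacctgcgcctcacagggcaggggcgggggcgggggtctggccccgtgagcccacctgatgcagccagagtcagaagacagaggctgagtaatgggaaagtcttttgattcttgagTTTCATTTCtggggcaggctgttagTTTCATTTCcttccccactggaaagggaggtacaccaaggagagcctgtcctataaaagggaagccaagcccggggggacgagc
RSAD2: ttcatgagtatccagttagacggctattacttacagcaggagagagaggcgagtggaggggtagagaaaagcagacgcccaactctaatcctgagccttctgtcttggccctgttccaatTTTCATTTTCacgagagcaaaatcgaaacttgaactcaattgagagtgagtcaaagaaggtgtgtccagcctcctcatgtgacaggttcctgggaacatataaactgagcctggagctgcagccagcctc

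ISG15 held 3 matches of the wider spacing, of which 2 overlapped on the gene's strand and 1 lay on the other strand, and RSAD2 held 1. MX2 held 2 matches of the narrower spacing, which was added to the search after the sequences had been seen. IFIT3 held 2 of the wider spacing, and IFIT1, IFIT2, IRF7 and OAS1 held neither form. Of 19556 such windows of protein-coding genes 3.01% held the wider form, 2.78% the narrower and 5.45% either. In 35 other interferon-stimulated genes 14 windows (40.0%) held either form. These are letter matches in a window set by the annotated start, and no binding was measured.

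Total UMI counts ranged from 18962138 to 53165191 over the 10 gland libraries, were 84971814 and 46923887 in milk (L0, L20), and 42815421 and 17906403 in the sections (G90, PI2). After removal of barcodes with under 300 genes or over 25% mitochondrial UMIs, 9332 to 18693 nuclei remained per gland, with a median of 1382 to 2496 UMIs. Levels are given as UMIs per 1000000 UMIs of the kept nuclei (CPM). Nuclei, cells and spots were placed in up to 11 classes by marker genes that include no member, and the gate was checked against genes it did not use. The neutrophil gate was used in milk and sections only, so neutrophils were not sought in gland nuclei. PTPRC, a leukocyte marker, had a median of 946 CPM in the macrophage gate against 37.7 in the epithelial gate. G90-2 shared 103 to 228 barcodes with each other nuclei or milk library, and no pair of those libraries shared more than 284. The sections shared 2248 spot barcodes, every barcode of the PI2 section. Counting intervals are 95% and cover counting error only, not differences between sows.

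The gland of the second G90 sow (G90-2) stood apart in nearly every member. The 7 measured genes summed to 40.8 CPM in G90-1 and 1906 in G90-2. They summed to 80.6 and 28.5 in the L0 glands, 274 and 242 in the L20 pair, 57.1 and 740 in the PI2 pair, and 152 and 452 in the PI7 pair. G90-2 was thus highest, PI2-2 next and PI7-2 the third, while L0-2 was lowest, and the pair of sows differed 46.7-fold at G90 and 12.96-fold at PI2. Within a whole gland, a larger share of cells that use a gene cannot be told apart from more RNA per cell.

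MX1 had 9.30 CPM in G90-1 and 766 in G90-2, 19.5 and 4.33 in the L0 pair, 103 and 51.8 in the L20 pair, 10.9 and 288 in the PI2 pair, and 29.3 and 129 in the PI7 pair. MX2 had 10.4 and 582 CPM in the G90 pair, 23.1 and 5.34 in the L0 pair, 86.5 and 99.5 in the L20 pair, 12.4 and 283 in the PI2 pair, and 49.6 and 178 in the PI7 pair. RSAD2 had 3.77 and 272 CPM in the G90 pair, 6.95 and 2.57 in the L0 pair, 16.9 and 25.2 in the L20 pair, 5.005 and 56.3 in the PI2 pair, and 14.2 and 50.5 in the PI7 pair. These 3 genes shared 1 order at the extremes, with G90-2 highest, PI2-2 next and L0-2 lowest.

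ISG15 had 0.996 and 39.9 CPM in the G90 pair, 3.49 and 0.756 in the L0 pair, 12.4 and 6.10 in the L20 pair, 1.37 and 41.5 in the PI2 pair, and 5.56 and 22.6 in the PI7 pair. It was the only member whose highest gland was PI2-2, and G90-2 lay just under it with overlapping counting intervals (38.2 to 41.6 against 38.7 to 44.6 CPM). IRF7 had 4.71 and 108 CPM in the G90 pair, 16.4 and 10.99 in the L0 pair, 40.1 and 4.40 in the L20 pair, 13.5 and 50.5 in the PI2 pair, and 6.31 and 21.3 in the PI7 pair. Its lowest gland was L20-2, which the other members did not share.

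IFIT1 had 6.94 and 110 CPM in the G90 pair, 7.27 and 2.87 in the L0 pair, 9.50 and 38.7 in the L20 pair, 9.65 and 16.3 in the PI2 pair, and 28.6 and 35.8 in the PI7 pair. IFIT2 had 4.65 and 27.5 CPM in the G90 pair, 3.81 and 1.61 in the L0 pair, 5.96 and 16.4 in the L20 pair, 4.36 and 4.60 in the PI2 pair, and 18.7 and 14.3 in the PI7 pair. The IFIT pair thus followed another order behind G90-2: L20-2 and both PI7 glands came next, and PI2-2, high for MX1 and ISG15, was not raised for IFIT2.

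**Figure D1:**
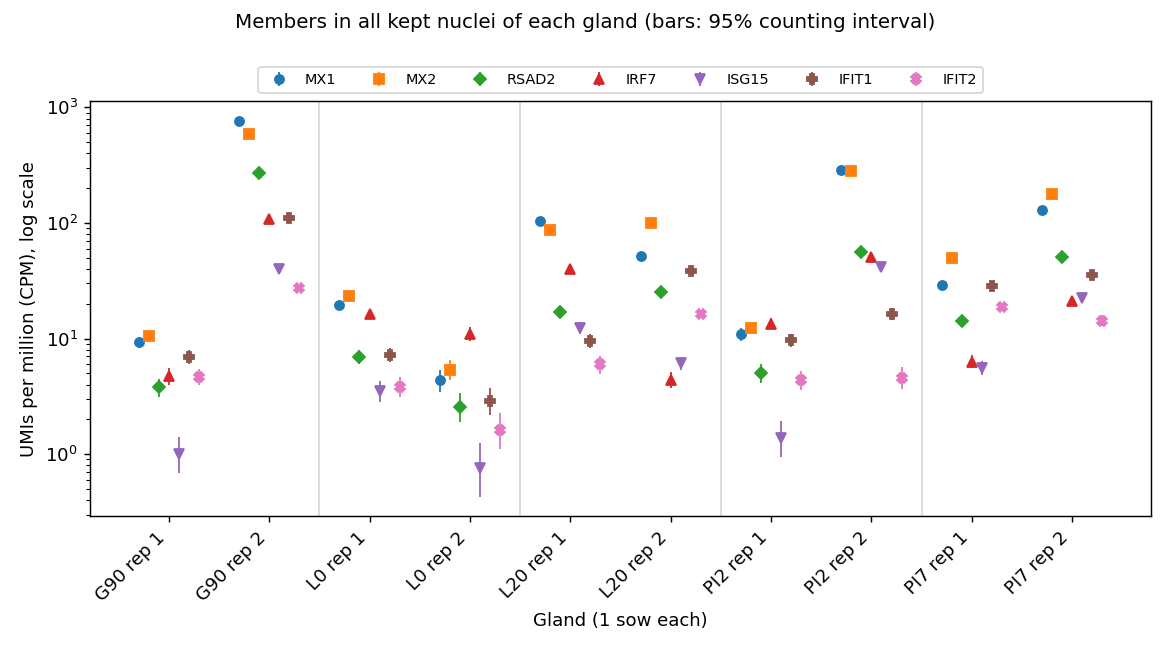
Level of the 7 measured members in all kept nuclei of each of the 10 glands, in CPM on a log scale, with 95% counting intervals as bars. The G90 replicate 2 points lie above the others for every member but ISG15, which reached 41.5 CPM in PI2 replicate 2 and 39.9 there.

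Between the G90 sows the summed level differed 46.7-fold (95% counting interval 44.3 to 49.3), from 1351 UMIs in G90-1 to 101347 in G90-2. MX1 differed 82.4-fold, RSAD2 72.1-fold, MX2 55.9-fold, ISG15 40.0-fold, IRF7 23.0-fold, IFIT1 15.9-fold and IFIT2 5.91-fold. On the scale of CPM + 1, used for each such count between sows, all 7 members were at least 4-fold higher in G90-2, against 1.04% of 12772 genes. With genes ranked by this difference MX1 stood at position 2, RSAD2 at 3 and MX2 at 4, and the lowest member, IFIT2, at 90. This is 1 sow against 1 sow, so no test applies.

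The difference was shared by most other interferon-stimulated genes on the list. Of 29 other interferon-stimulated genes 23 were at least 4-fold higher in G90-2 and none as much lower. OAS2, a further sensor of double-stranded RNA, went from 52.3 to 1419 CPM, HERC5, a ligase known to attach ISG15, from 13.04 to 587, and EIF2AK2, the kinase PKR, from 63.7 to 788. USP18, which removes ISG15 and restrains the receptor, went from 8.64 to 258 CPM. None of 6 receptors and none of 11 sensors and adaptors was past that fold, beside 1.04% of all genes, so such short lists show little. The sensors and adaptors had a median log2 ratio of 0.598, with 7 of 11 higher in G90-2. The receptors had a median of -0.150, with 3 of 6 higher, and all genes a median of -0.288.

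Transcripts of the ligands themselves were few. IFNB1 had 2 UMIs in G90-1 and 4 in G90-2, IFNG 17 and 5, and the interferon alpha gene listed as IFN-ALPHA-8 51 and 57. IFNE, the epithelial interferon, had 217 and 63. None of these ligands was higher in G90-2 by anything near the folds of the members. The listings of STAT2, IRF9, TBK1 and RIGI were at or near 0 UMIs in the nuclei, and nothing is drawn from them.

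Other measures moved with the same gland. G90-2 had the most UMIs of the 10 gland libraries, 15652 epithelial nuclei of 18693 against 6138 of 11428 in G90-1, a median mitochondrial share of 0.0459% against 0.506%, and CSN2 (beta-casein) at 2571 CPM against 119 in epithelial nuclei. PI2-1, with members low, had a mitochondrial share of 0.0366%. All 10 macrophage gate markers and all 9 T and NK gate markers measured were lower in G90-2 than in G90-1, at median log2 ratios of -1.32 and -2.10. Their part in the result was not tested.

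The difference was seen in each of the 7 classes with enough nuclei in both G90 glands. Epithelial-gated nuclei went from a summed level of 25.04 CPM to 1852, a 73.9-fold difference (68.2 to 80.3). Macrophage-gated nuclei went from 91.7 to 4102 CPM (44.7-fold, 35.2 to 57.6) and blood endothelial nuclei from 103 to 3658 CPM (35.3-fold, 29.8 to 42.1). Fibroblasts differed 57.0-fold, myoepithelial nuclei 39.7-fold, lymphatic endothelial nuclei 29.2-fold and T and NK nuclei 24.9-fold, the lowest of the 7 classes.

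Single members differed between classes in size. In epithelial nuclei RSAD2 went from 1.42 to 250 CPM (176-fold, 126 to 255) and MX1 from 5.97 to 765 CPM (128-fold, 109 to 152). In blood endothelial nuclei MX1 went from 3.497 to 717 CPM on 5 UMIs in G90-1, a 205-fold difference with an interval of 86.9 to 636. In macrophages ISG15 had 0 UMIs in G90-1 (at most 3.88 CPM) and 40 in G90-2, or 119 CPM.

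The share of each member among member UMIs also varied by class in G90-2. MX1 and MX2 made up 72.3% in epithelial nuclei, 59.8% in macrophages and 38.1% in blood endothelial nuclei. ISG15 and IFIT1 together made up 7.01%, 17.1% and 22.7% of the same sums.

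Leakage of epithelial RNA into other nuclei was gauged by CSN2, which non-secretory cells should lack. In G90-2 the 6 other classes held CSN2 at 10.1% to 23.7% of the epithelial 2571 CPM, whereas the summed members stood there at 70.3% to 221% of the epithelial level. In some classes of other glands the gauge ran higher. CSN2 reached 94.2% of the epithelial level in L0-1 fibroblasts and 137% in T and NK nuclei of L20-1, where the members stood at 164% and 67.7%. In blood endothelial nuclei of PI2-2 it stood at 67.3%, with the members at 86.2%. Member levels in such nuclei are not separable from free RNA.

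**Figure D2:**
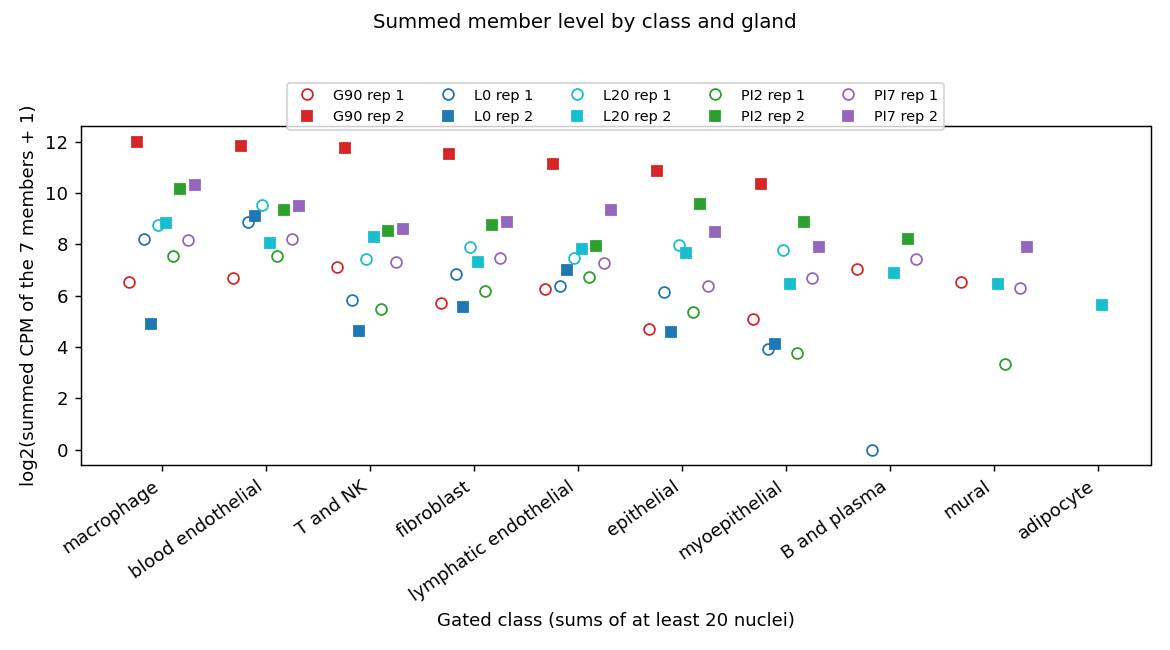
Summed level of the 7 members, as log2(CPM + 1), by marker-gated class, with open circles for replicate 1 and filled squares for replicate 2 of each stage. The G90 replicate 2 squares stand above every other gland in each of the 7 classes in which that gland had at least 20 nuclei.

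The pairs at other stages were closer. At PI2 the summed members were 12.96-fold higher in the second sow, and 4 of 7 members (MX1, MX2, ISG15, RSAD2) were past 4-fold, against 2.4% of 12894 genes. Epithelial nuclei of the PI2 sows differed 19.0-fold, T and NK nuclei 8.44-fold, macrophages 6.13-fold and blood endothelial nuclei 3.53-fold. In PI2-2 CSN2 stood at 25.2%, 30.3% and 67.3% of its epithelial level in the latter 3 classes, beside members at 48.3%, 150% and 86.2% of theirs. CSN2 in the epithelial gate was also higher in PI2-2 (498 against 2.87 CPM), as in the G90 pair. In the PI7 pair, with members higher in the second sow, it was lower there (0.299 against 2.06 CPM). It was 2068 against 1981 CPM in the L0 pair and 22.2 against 200 in the L20 pair (second against first).

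At PI7 the second sow was 2.97-fold higher in sum, with MX1 past 4-fold (1 of 7, against 0.46% of 12622 genes). At L20 the second was 0.882 times the first and no member was 4-fold higher, against 6.2% of 12644 genes. IRF7 was over 4-fold lower, beside 661 of those genes at least 4-fold lower. At L0 the second was 0.353 times the first and no member was 4-fold higher, against 0.0844% of 13032 genes. All 7 members were lower in the second sow there, where 5524 of the 13032 genes were higher. None was 4-fold lower on the scale of CPM + 1, beside 37 of those genes. The L20 glands differed in make-up, with 7944 epithelial nuclei of 12193 and 426 macrophages in L20-1, and 1512 of 15148 and 2913 in L20-2.

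Member UMIs were found in most nuclei of G90-2. With every nucleus thinned to 1000 UMIs, 67.9% of its nuclei (95% exact binomial interval 67.2 to 68.6) held at least 1 member UMI, 33.9% held at least 2 different members and 13.2% at least 3. In G90-1 the shares were 4.15%, 0.186% and 0.0233%. Thinning left out 2541 shallower nuclei of G90-2 and 2848 of G90-1, and without thinning 82.3% and 8.44% held a member UMI. These shares do not separate a nucleus's own RNA from free RNA. In G90-2 the CSN2 gauge in other classes stood at 10.1% to 23.7% of the epithelial level.

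In the other glands, at least 1 member was found in 5.74% and 2.49% of thinned nuclei at L0, 19.8% and 14.8% in the L20 pair, 4.58% and 34.5% in the PI2 pair, and 11.9% and 22.7% in the PI7 pair. Unthinned the shares were 10.8% and 4.47%, 27.9% and 23.5%, 7.73% and 44.3%, and 18.4% and 32.2%. After thinning the glands lay in the order of their CPM sums, whereas unthinned G90-1 lay above PI2-1.

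In the epithelial gate 66.8% of thinned nuclei held a member in G90-2, against 2.66% in G90-1, at unthinned median depths of 2763.5 and 3471 UMIs. In the macrophage gate of G90-2 92.5% held at least 1 member and 50.4% at least 3, on 133 nuclei. CSN2 stood in that gate at 23.7% of its epithelial level, and free RNA was not separated from these shares.

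**Figure D3:**
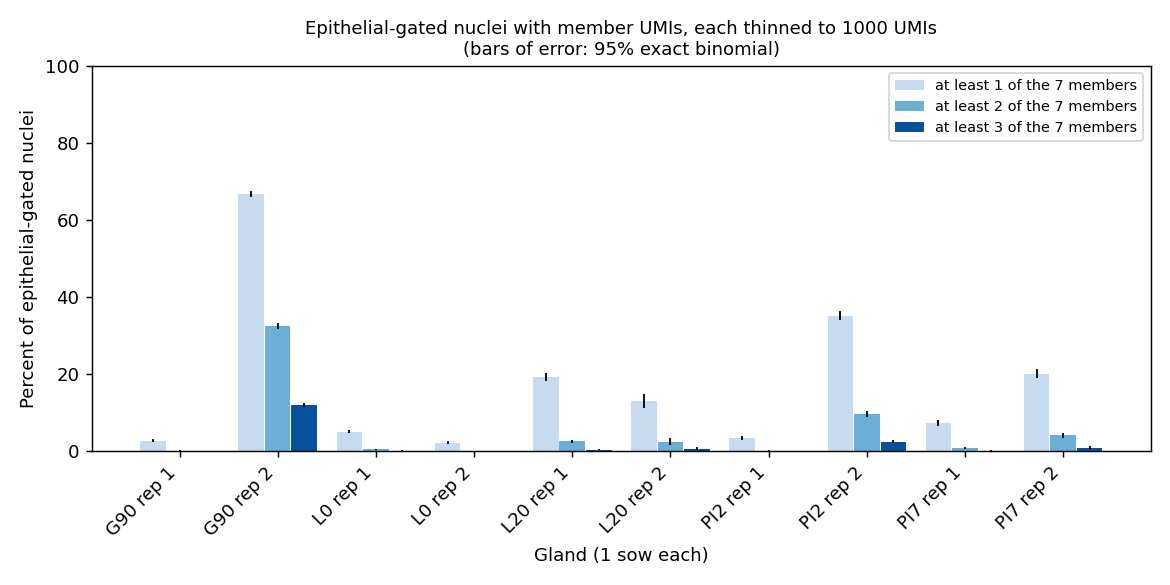
Percent of epithelial-gated nuclei with UMIs of at least 1, 2 or 3 different members after thinning to 1000 UMIs, by gland, with 95% exact binomial intervals. G90 replicate 2 reached 66.8%, 32.4% and 12.1%, PI2 replicate 2 followed at 35.1%, 9.65% and 2.43%, and L0 replicate 2 had 2.22% with at least 1.

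The stages were compared over sows with edgeR's quasi-likelihood test, to ask whether the members moved with the cycle. No member passed in any of the 4 steps between adjacent stages of the whole gland (adjusted p under 0.05 and an absolute log2 fold over 1), and neither did any of 22695 genes (0%). At an unadjusted p under 0.05 there were 1652, 2912, 817 and 464 genes in the steps from G90 to L0, L0 to L20, L20 to PI2 and PI2 to PI7. Of the members 5 had such an unadjusted p from G90 to L0 and 0 in the later steps. DESeq2 called 1 (IFIT1) from G90 to L0 and 0 later. The share of all genes called by DESeq2 is not given here, and edgeR's 0% does not stand in for it. The median log2 fold change of the members from G90 to L0 was -3.39, beside -0.17 over all genes.

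The member with the lowest p from G90 to L0 was IFIT1, at a log2 fold change of -3.39 (SE 1.153) and an adjusted p of 0.503 (edgeR, Benjamini-Hochberg). Without G90-2 its log2 fold change was 0.22. From L0 to L20 it was IFIT2, at 1.40 (SE 0.86, edgeR adjusted p = 0.515). IFIT2 also had the lowest p from L20 to PI2, at -0.90 (edgeR adjusted p = 0.825), and from PI2 to PI7, at 1.496 (edgeR adjusted p = 0.998).

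Within epithelial-gated nuclei no member passed edgeR's test. At an unadjusted p under 0.05 there were 5 members from G90 to L0, beside 2203 of 20061 genes, and 0 later. DESeq2 called 2 members from G90 to L0, and its share over all genes is not given here. Of all 20061 genes 1 (0.00498%) was called by edgeR from G90 to L0 and none in the 3 later steps. The member with the lowest p was IFIT2 from G90 to L0, at -3.16 on the log2 scale (SE 1.05, edgeR adjusted p = 0.272), MX1 from L0 to L20 at 2.58 (edgeR adjusted p = 0.625), ISG15 from L20 to PI2 at 1.67 (edgeR adjusted p = 0.946) and IRF7 from PI2 to PI7 at -1.61 (edgeR adjusted p = 1.0). These values rested on single sows: without G90-2 the IFIT2 value was -0.40, and without PI2-2 the ISG15 value was -3.36 and the IRF7 value -0.21. Within macrophage-gated nuclei none of the members and none of 10171 genes (0%) passed in any step by edgeR's test, and DESeq2 called no member. At an unadjusted p under 0.05 there were 3 members from G90 to L0, beside 588 of 10171 genes, and 0 later.

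From L0 to L20 the sows did not overlap for most members. Both L20 glands lay above both L0 glands for 6 of 7 members, all but IRF7, against 40.5% of 12809 genes. The same held in epithelial nuclei for 5 of the 6 members with a mean of at least 5 CPM, against 37.8% of 12069 genes. In macrophages the L0 glands had too few UMIs for such an order, with 0 of MX1 and MX2 in L0-2 and 0 of RSAD2 in both. MX1 in epithelial nuclei and the whole gland shared this pattern, but such ordering was common among all genes at this step.

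Whether a stage step differed between epithelial and macrophage nuclei was tested by an interaction with the sow as a block. No member passed edgeR's test in the 4 steps, whereas 1.13%, 2.43%, 0.58% and 0.535% of 19826 genes did. From PI2 to PI7 1 member had an unadjusted p under 0.05, beside 1141 genes.

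Classes of the same glands were then compared, each against the mean of the others, with the sow as a block. Blood endothelial nuclei were the class richest in members by this test: 5 of 7 were higher, against 9.51% of 12214 genes. ISG15 was higher by 2.999 on the log2 scale (SE 0.41, edgeR adjusted p = 3.19e-09), IFIT2 by 2.37 (SE 0.24, edgeR adjusted p = 8.41e-14), RSAD2 by 2.27 (SE 0.30, edgeR adjusted p = 7.82e-10), IFIT1 by 2.11 (SE 0.21, edgeR adjusted p = 2.69e-14) and MX2 by 1.3 (SE 0.24, edgeR adjusted p = 5.43e-06). MX1 and IRF7 did not pass, at 0.06 and 0.18. In each gland but PI2-2 the summed members were above the epithelial sum, at a median ratio of 3.29.

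Behind these folds lay ISG15 levels in blood endothelial nuclei of 9.09 to 290 CPM over the 10 glands (median 37.9), and 0.459 to 41.6 CPM (median 4.33) in epithelial nuclei. IFIT1 had 29.4 to 538 CPM (median 82.6) in blood endothelial nuclei and 1.94 to 95.8 CPM (median 8.62) in epithelial nuclei. The ranges overlapped between classes because the glands differed so much, and the differences within a gland carried the test.

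Macrophages were higher in 3 of 7 members, against 9.94% of 12214 genes: MX2 by 2.22 (SE 0.22, edgeR adjusted p = 1.02e-14), IRF7 by 1.149 (SE 0.27, edgeR adjusted p = 0.000257) and IFIT2 by 1.07 (SE 0.28, edgeR adjusted p = 0.000997). MX2 ranged from 0 to 1285 CPM there, with a median of 194, against a median of 53.5 in epithelial nuclei. The summed members stood at 150% to 463% of the epithelial sum in 9 glands, and in L0-2 the macrophages held 2 member UMIs, too few to compare. The macrophage count of 3 fell to 1 without L20-2, the gland with most macrophages. DESeq2 called 1 member, and 5 were called with mixed nuclei left out. IFIT2 stood at 0.92 without G90-2, and IRF7 at 0.96 without G90-1 and 0.80 without PI7-1, each under the fold limit.

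T and NK nuclei were higher in RSAD2 alone, by 1.44 (SE 0.33, edgeR adjusted p = 0.000321), against 7.68% of genes, and this call was absent without G90-1, L20-2 or PI7-1. Lymphatic endothelial nuclei were higher in IFIT2 alone, by 1.44 (SE 0.31, edgeR adjusted p = 0.000167), against 8.56% of genes. RSAD2 ranged from 5.11 to 687 CPM over the glands in T and NK nuclei, and IFIT2 from 0 to 85.6 CPM in lymphatic endothelial nuclei. Both ends of the IFIT2 range came from sums of 22 nuclei, with 0 UMIs in PI2-2 and 2 in L0-2.

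Epithelial nuclei were lower in IFIT2, at -2.12 (SE 0.32, edgeR adjusted p = 3.63e-08), and in IFIT1, at -1.42 (SE 0.25, edgeR adjusted p = 1.25e-06), against 13% of genes lower. Myoepithelial nuclei were lower in RSAD2, at -2.04 (SE 0.61, edgeR adjusted p = 0.00748), and MX2, at -1.05 (SE 0.33, edgeR adjusted p = 0.0115), against 6.97% of genes. Mural nuclei, present in 5 glands, were lower in IFIT1, at -1.99 (SE 0.66, edgeR adjusted p = 0.0309), against 2.74% of genes. That mural call rested on 0 to 3 IFIT1 UMIs per gland, and the myoepithelial RSAD2 call on 0 to 11 UMIs per gland. With stage in place of the sow block no member was called in myoepithelial, mural or T and NK nuclei. No member passed in fibroblasts, against 12.5% of genes called in either direction, or in B and plasma nuclei, against 11.7%. At an unadjusted p under 0.05 fibroblasts had 3 members, beside 4600 of 12214 genes. B and plasma nuclei had 0, beside 3371 genes. The epithelial count of 2 became 4 without G90-1, L20-2, PI2-2 or PI7-1, and the fibroblast count became 1 without L20-2 or PI7-1. The mural count became 2 without L0-1 or PI2-2, neither of which gave a mural sum. None of the 5 glands with mural sums could be left out, since a class needed at least 5 glands. MX1 was called in none of the 9 classes, although it was the member with most UMIs in G90-2.

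**Figure D4:**
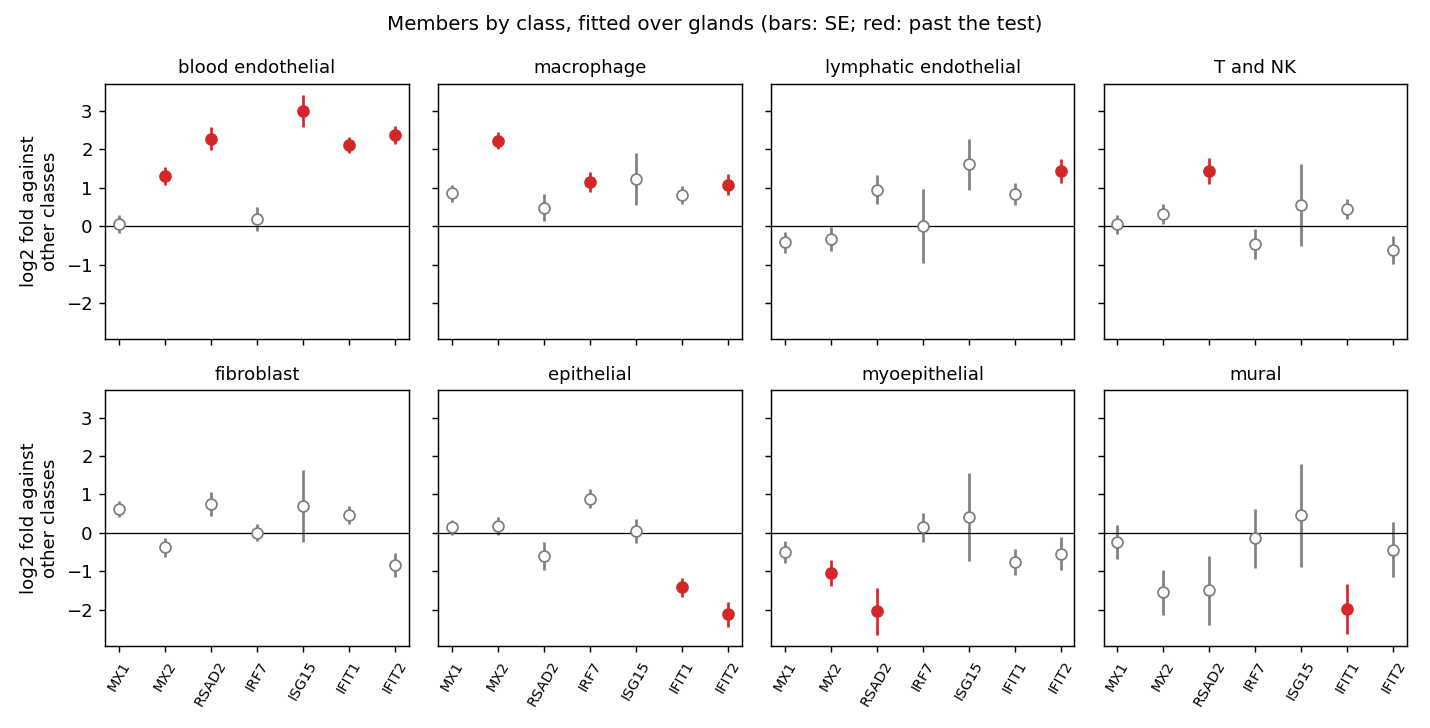
Fitted log2 fold change of each member in a class against the mean of the other classes, with standard errors as bars and red points for those past the test, for the classes other than B and plasma. Blood endothelial nuclei had 5 members past the test, macrophages 3 and fibroblasts 0.

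Other genes of the pathway were spread unevenly over the classes. In macrophages 6 of 29 other interferon-stimulated genes were higher, among them PARP14 at 1.75 and OAS2 at 1.13, and 7 of 12 sensors and adaptors were, with IRF5 at 3.40, TLR8 at 3.29 and CGAS at 1.94 on the log2 scale. The receptors IFNGR1 (1.61), IFNAR2 (1.49) and IFNGR2 (1.41) were higher there as well, 3 of 6. None of these receptors was particular to macrophages. IFNGR1 was also higher in blood endothelial (1.76) and lymphatic endothelial nuclei (1.36). IFNAR2 was also higher in T and NK nuclei (1.49), and IFNGR2 in epithelial nuclei (1.46). In blood endothelial nuclei 6 of 29 interferon-stimulated genes were higher, with GBP1 at 1.87 and IFI6 at 1.71, while no sensor was and 1 of 12 was lower, against 3.18% of genes. Of all genes 9.94% were called higher in macrophages and 9.51% in blood endothelial nuclei. The list medians in these classes were 0.53 and 0.69, beside member medians of 1.07 and 2.11.

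T and NK nuclei were lower in 2 of the 29 genes, against 7.29% of all genes, and higher in 7, against 7.68%. Among those 7 were GBP1 at 2.49 and PARP14 at 2.04. CGAS, from the list of sensors and adaptors, was higher there at 2.998. Myoepithelial nuclei were lower in 8 of the 29, against 6.97% of all genes. Epithelial nuclei were lower in 3 of the 29, a share no higher than the 13% of all genes. IFNE, the 1 ligand that could be tested, was higher in myoepithelial nuclei, at 6.26 (SE 0.31, edgeR adjusted p = 7.26e-30).

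Within the set the members did not move as 1 block. Over 81 sums of a class in a gland, the Pearson correlation of log2(CPM + 1) with the mean of the other members was 0.85 for MX2 and ISG15, 0.84 for RSAD2, 0.80 for MX1, 0.75 for IFIT1, 0.62 for IRF7 and 0.52 for IFIT2. These sums share libraries and are not independent. IFIT2 and IRF7 were thus least like the rest.

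The 10 genes outside the set with the most similar pattern, of 11636, were CMPK2 (r = 0.82), IFI6 (0.79), EIF2AK2 (0.78), ZNFX1 (0.75), DHX58 (0.74), IFI44 (0.73), HERC6 (0.73), ZBP1 (0.72), USP18 (0.72) and HERC5 (0.72). All 10 were on the list of other interferon-stimulated genes. Over the 74 sums without G90-2 their correlations were 0.55 to 0.79. CMPK2, a nucleotide kinase and the most similar, went from 5.40 to 120 CPM between the G90 sows.

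In milk the summed members stood at 553 CPM in the colostrum library and 1883 in the mature milk library, 3.40 times as high (3.36 to 3.44). MX1 went from 5.16 to 125 CPM (24.2-fold), MX2 from 10.7 to 127 (11.8-fold), RSAD2 from 4.17 to 44.1 (10.6-fold) and ISG15 from 207 to 917 (4.43-fold). IFIT1 went from 199 to 461 CPM (2.32-fold), IFIT2 from 65.1 to 114 (1.76-fold) and IRF7 from 62.1 to 94.6 (1.52-fold). The day of each milk is that of its labels, although the title of the colostrum library carries the code letter that marks G90 among the nuclei. The 5 members past 2-fold stood against 15.3% of 8739 genes. Cell make-up also differed, with epithelial cells at 70.5% and 23.2% of all UMIs (L0, L20), and these whole-milk folds do not separate make-up from level. With 1 library per day a difference between milks cannot be told apart from one between donors.

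Which cells held the members was asked with the same gates and the neutrophil gate, which was not used in gland nuclei. Neutrophil-gated cells, 10448 in colostrum and 6468 in mature milk, held 69.3% and 47.0% of all member UMIs but 18.2% and 22.1% of all UMIs. Macrophages held 5.51% and 21.7% of the member UMIs, and 4.96% and 33.4% of all UMIs. Epithelial cells held 12.2% and 2.60% of the member UMIs, and 70.5% and 23.2% of all UMIs. Member UMIs of ungated cells, which were 16.8% and 28.2% of the cells, are outside these shares.

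Within the neutrophil gate the sum went from 2111 to 4003 CPM, 1.90-fold (1.87 to 1.92), and 4 members were past 2-fold, against 9.33% of 6568 genes. MX1 went from 12.6 to 126 CPM (9.95-fold), RSAD2 from 10.1 to 61.4 (6.06-fold), MX2 from 9.52 to 57.1 (6.0-fold) and ISG15 from 764 to 2095 (2.74-fold). IFIT1 went from 864 to 1169 CPM (1.35-fold), and IFIT2 from 263 to 307 (1.17-fold). IRF7 stood at 188 in both (0.998-fold, interval 0.940 to 1.06).

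In macrophage-gated milk cells MX1 went from 24.9 to 196 CPM and MX2 from 119 to 290, whereas IFIT2 went the other way, from 74.7 to 27.6 CPM (0.369-fold, 0.317 to 0.430). In T and NK cells MX1 had 0 UMIs in colostrum (at most 4.996 CPM) and 247 in mature milk (118 CPM). Epithelial milk cells had sums of 95.7 and 211 CPM. Free RNA was gauged by S100A8, a gate marker of neutrophils, which stood in T and NK cells and epithelial cells of mature milk at 1.62% and 1.09% of its neutrophil level, and in colostrum at 1.496% and 1.04%. In macrophages it stood at 31.6% and 12.9% (mature milk, colostrum), and the gate itself keeps its marker low in other classes. CSN2, on which no gate rests, stood in the 3 leukocyte classes at 3.22% to 4.36% of its epithelial level in colostrum and 0.277% to 0.837% in mature milk. MX1 in T and NK cells and epithelial cells stood at 93.8% and 15.7% of its neutrophil level in mature milk, and at 0.876 and 19.8 CPM in epithelial cells of colostrum and mature milk.

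After thinning to 1000 UMIs 32.1% of colostrum cells and 44.1% of mature milk cells held at least 1 member UMI, and 47.4% and 55.9% did unthinned. At least 3 different members were found in 5.17% and 9.87% of thinned cells.

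**Figure D5:**
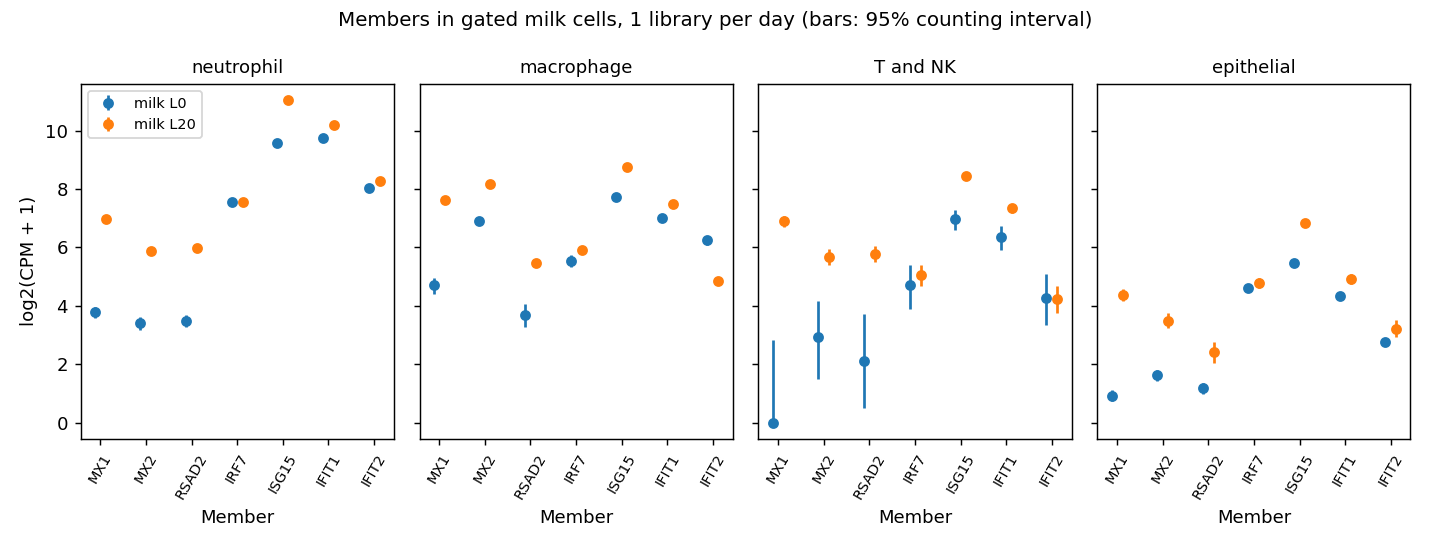
Level of each member, as log2(CPM + 1), in gated classes of the colostrum (L0) and mature milk (L20) libraries, 1 library each, with 95% counting intervals. In neutrophil-gated cells ISG15 went from 764 to 2095 CPM and MX1 from 12.6 to 126, while IRF7 stood at 188 CPM in both.

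The make-up of the set differed between nuclei and whole cells. MX1 and MX2 made up 34.0% (L0-2) to 77.1% (PI2-2) of member UMIs in the nuclei of the 10 glands, with 48.3% and 70.7% in the G90 pair, but 2.87% and 13.4% in milk (L0, L20) and 21.6% and 13.9% in the sections (G90, PI2). ISG15 and IFIT1 together made up 73.4% and 73.2% in milk against 7.81% (PI2-2) to 22.4% (PI7-1) in the glands. Nuclear against cytoplasmic RNA, cell types, kits and sows all differ between these libraries and cannot be told apart.

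The section sums lay under both milks and within the range of the glands. The 8 measured members summed to 84.0 CPM in the G90 section and 119 in the PI2 section (1.41-fold, 1.34 to 1.49), and 2 of 8 were past 2-fold, against 10.7% of 9975 genes. These were IFIT2 (2.92 to 10.3 CPM, 3.52-fold) and IFIT1 (6.66 to 16.9 CPM, 2.53-fold). ISG15 went from 19.9 to 33.8 CPM and IRF7, the most counted member there, from 35.4 to 40.4. The make-up of the sections also differed, with the epithelial gate at 70.1% and 49.5% of spots and the fibroblast gate at 18.6% and 27.8% (G90, PI2). Within epithelial-gated spots the sum went from 85.9 to 119 CPM (1.38-fold, 1.298 to 1.47).

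OAS1, seen in the sections alone, had 54 UMIs at G90 (1.26 CPM) and 40 at PI2 (2.23 CPM), 1.77-fold (1.147 to 2.72). MX1 went from 10.6 to 8.27 CPM (0.778-fold, 0.642 to 0.938), a ratio of 0.825 in epithelial-gated spots with an interval that spans 1 (0.663 to 1.02), MX2 from 7.52 to 8.21 CPM and RSAD2 from 0.934 to 0.726 CPM. The labels do not tie the G90 section to either sow. At least 1 member UMI was found in 42.9% and 44.6% of spots, each a small region rather than a cell, and in 7.66% and 10.4% after thinning.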

How the data were processed

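Nuclei of 10 mammary glands, cells of 2 milks and spots of 2 sections were analysed. The authors deposited UMI counts per gene and barcode, made with CeleScope for nuclei and milk and with Space Ranger for the sections (version 1.2.0 in the submitters' notes), on Sscrofa11.1, and their clustering used Seurat 4.3.0. The annotation release was not given in the sources used here. Groups followed the labels, with the sow as the replicate.

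Barcodes with at least 300 genes and at most 25% UMIs of 13 mitochondrial genes were kept, without a doublet caller. A nucleus joined the class of which it held most distinct markers, at least 2 and more than of any other, and ties stayed ungated. Cells and nuclei were thinned to 1000 UMIs for shares. UMI sums per sow, or per sow and class with at least 20 nuclei, were tested with edgeR 4.0.16 in R 4.3.3 (quasi-likelihood, Benjamini-Hochberg over all genes tested). Stage fits had stage as the only term and class fits had the sow as a block. Called genes had an adjusted p under 0.05 and an absolute log2 fold over 1. Folds between sows or milks are ratios of CPM with exact counting intervals, over genes with a mean of at least 5 CPM, and a count of 0 allows up to 3 UMIs. Milks and sections had 1 library per group and no test.

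The stage numbering of replicates does not pair sows: deviations of same-numbered sows correlated between -0.526 and 0.380. Alternatives were DESeq2 1.42.0, no filter on low counts, stricter barcode filters, a gate of 3 markers, mixed nuclei left out, another term or block, each sow left out, and thinning to 500 UMIs. The scripts were tested on simulated counts. At the observed spread between sows, the gland stage test recovered 2 of 98 genes changed 4-fold and 22 of 96 changed 8-fold. The class test recovered 46 of 46 and 63 of 63. The absence of calls between stages therefore says little about changes of that size. All 9 members are named. Other genes are named when called, at most 4 per list by lowest p, or as the 10 with the highest correlation to the mean of the members. The pathway genes of the G90 pair, the ligands and IFNE were named, and S100A8 was taken as a gauge, after values were seen. Members and lists were chosen with earlier results of these data known. A pathway gene and a promoter window are not reported here.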

Additional observations from a re-analysis of the deposited data

How the results depend on the processing

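The 5 members higher in blood endothelial nuclei and the 1 in lymphatic endothelial nuclei held under each alternative run, as counts. DESeq2 called 1 member in the whole gland and 2 in epithelial nuclei from G90 to L0, and 1 in macrophages by class. Without a filter on low counts 4 members were called in macrophages from G90 to L0, where both L0 glands had few UMIs, and 2 in mural nuclei. With stage in place of the sow block the T and NK, mural and myoepithelial counts were 0. With mixed nuclei left out the counts were 5 in macrophages, 1 in fibroblasts, 0 in mural and 1 in myoepithelial nuclei. A gate of 3 markers gave 4 in epithelial nuclei, and a barcode filter of 500 genes with a limit of 5% mitochondrial UMIs gave 2 in mural nuclei. Shares over all genes are not given for the alternative runs, so these counts have no background. The cause of these changes was not tested. Leaving out 1 sow at a time gave 0 to 1 for T and NK, 2 to 4 for epithelial and 0 to 1 for fibroblast nuclei. It gave 1 to 3 for macrophage and 2 to 3 for myoepithelial nuclei. For mural nuclei it gave 1 to 2, over the 5 glands without a mural sum. The glands behind the mural call could not be left out, since a class needed at least 5 glands.

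With the replicate number as a block, 0 members were called in each stage step, as without it, and ISG15 from L20 to PI2 in epithelial nuclei turned to -0.080. With 1 sow left out that value ranged from -3.36 (without PI2-2) to 2.66, and in macrophages, where fitted values rest on few UMIs, from -7.24 (without PI2-2) to 3.16. IFIT1 from G90 to L0 in the whole gland ranged from -4.33 to 0.22 (without G90-2).

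The milk ratio of 3.40 was 3.75 at 500 genes and 10% mitochondrial UMIs and 3.09 over all deposited barcodes. In the neutrophil gate those settings gave 1.73 and 1.81, and a gate of 3 markers gave 1.58, with 2.09 in macrophages and 2.04 in epithelial cells. Thinned to 500 UMIs, the shares with a member were 2.78% and 49.3% in the G90 pair, 3.33% and 1.61% in the L0 pair, 12.6% and 9.16% in the L20 pair, 2.75% and 22.2% in the PI2 pair, 6.77% and 15.0% in the PI7 pair, and 26.3% and 36.3% in milk. G90-2 was again highest and L0-2 lowest. With 2 sows per stage, a change between stages under the spread between sows was not detectable.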
